A study of Mus musculus with 6 samples.

Results

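The genes described here are the Ly49 receptor genes Klra1, Klra2, Klra3, Klra4, Klra5, Klra7 and Klra8, together with Ncr1, in sorted CD8+ T cells from mice of the sanroque and wild-type genotypes. They were listed by symbol and looked up in the platform annotation, and a gene counted as measured when a probe set carried its symbol alone. Of the 8 genes, 5 were measured in this sense, among 19938 genes on the array: Klra2, Klra3, Klra5, Klra8 and Ncr1, each with 1 probe set. The genes were put on the list with results of these data known, and a gene's probe set was to be chosen by its mean log2 intensity over all 6 arrays, but 0 of these genes had a further probe set to choose from. Klra1, Klra4 and Klra7 occurred only on a probe set that also lists other Ly49 genes.

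RNA was measured on 6 Affymetrix gene-level arrays, 3 from wild-type mice (Roquin+/+) and 3 from sanroque mice (Roquinsan/san), all on a C57BL/6 background and 10 weeks old. Sanroque animals are homozygous for a point mutation in Rc3h1, which encodes the RNA-binding protein Roquin. It is a germline allele, so every cell of the animal carries it and not the T cells alone. The samples were CD44-low CD8+ T cells sorted from spleen and lymph node, described as biological replicates with 1 sample per array.

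Ly49 proteins are lectin-like receptors on natural killer (NK) cells and on some memory-type and regulatory CD8+ T cells, and most of them recognise MHC class I molecules. Inhibitory Ly49 receptors carry a tyrosine motif in their cytoplasmic tail that recruits the phosphatase SHP-1, whereas activating ones lack it and signal through the adaptor DAP12, encoded by Tyrobp. Their genes lie close together in the NK gene complex on mouse chromosome 6. Ncr1, on chromosome 7, encodes NKp46, an activating receptor of the immunoglobulin superfamily that is a defining marker of NK cells and is absent from most T cells.

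The sequences around the start sites of the 5 measured genes are shown because the members differ in whether they moved, while their Ly49 promoter windows share stretches of sequence. Each window runs from 250 bases before to 50 bases after a RefSeq start site in build GRCm38.p6, 5′ to 3′ on the gene's own strand. All 8 listed genes had at least 1 window, and where a gene had 2, the one nearest the outer end of the gene was taken. In the 4 Ly49 windows the capitals mark the longest run of letters present in all 4, and in the Ncr1 window they mark matches to the RUNX core TGTGGT on either strand.
Klra2 (chr6:131247313-131247612, minus strand): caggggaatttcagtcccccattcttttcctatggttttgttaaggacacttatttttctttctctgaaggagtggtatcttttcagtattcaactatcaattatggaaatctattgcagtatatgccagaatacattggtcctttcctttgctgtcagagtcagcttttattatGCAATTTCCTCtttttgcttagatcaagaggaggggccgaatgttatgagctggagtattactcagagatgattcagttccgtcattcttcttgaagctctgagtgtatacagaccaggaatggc
Klra3 (chr6:130337577-130337876, minus strand): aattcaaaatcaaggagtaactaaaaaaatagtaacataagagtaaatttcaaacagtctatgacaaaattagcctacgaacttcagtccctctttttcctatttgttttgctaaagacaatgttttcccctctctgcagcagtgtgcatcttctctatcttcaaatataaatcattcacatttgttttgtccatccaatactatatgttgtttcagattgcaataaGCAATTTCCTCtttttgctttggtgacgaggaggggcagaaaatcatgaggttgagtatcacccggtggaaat
Klra5 (chr6:129913175-129913474, minus strand): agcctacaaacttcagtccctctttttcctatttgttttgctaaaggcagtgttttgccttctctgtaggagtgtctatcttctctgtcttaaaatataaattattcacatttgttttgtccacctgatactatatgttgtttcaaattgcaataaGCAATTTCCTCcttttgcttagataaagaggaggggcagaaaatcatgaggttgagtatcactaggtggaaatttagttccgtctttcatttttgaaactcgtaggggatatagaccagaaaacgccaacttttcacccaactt
Klra8 (chr6:130129849-130130148, minus strand): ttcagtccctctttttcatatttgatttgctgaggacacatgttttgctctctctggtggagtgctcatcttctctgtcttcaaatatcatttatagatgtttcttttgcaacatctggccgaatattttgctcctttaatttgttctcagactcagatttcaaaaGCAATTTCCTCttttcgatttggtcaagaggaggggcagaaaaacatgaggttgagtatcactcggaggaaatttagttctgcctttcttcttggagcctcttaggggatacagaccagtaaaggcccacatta
Ncr1 (chr7:4337465-4337764, plus strand): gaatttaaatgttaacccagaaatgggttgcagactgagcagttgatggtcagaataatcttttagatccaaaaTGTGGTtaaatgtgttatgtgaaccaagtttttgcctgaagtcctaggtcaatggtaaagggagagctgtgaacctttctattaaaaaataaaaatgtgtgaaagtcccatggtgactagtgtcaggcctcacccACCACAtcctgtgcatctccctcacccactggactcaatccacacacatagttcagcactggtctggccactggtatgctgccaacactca

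The shared run GCAATTTCCTC is 11 bases long and occurs on either strand in 0.0578% of the 32851 windows of this length in the RefSeq table. It begins 75 bases before the start site in Klra2, 23 in Klra3, 94 in Klra5 and 84 in Klra8, and a further copy lies in the Klra4 window. The run is absent from the Klra1, Klra7 and Ncr1 windows that were searched. The longest run common to a pair was 38 bases for Klra3 and Klra5, and 20 bases for Klra2 and Klra3. The RUNX core TGTGGT occurred in the Ncr1 window at 2 places and in 0 of the 4 Ly49 windows, against 16.8% of all windows. The letters CTTTGA, a TCF/LEF core, and GGAAGT, an extended ETS motif, were in 0 of the 5 windows, with 16.0% and 23.8% of all windows holding them. The shorter GGAA was not searched. It reads TTCC on the other strand, and TTCC lies inside the shared run of the 4 Ly49 windows. The T-box motif TCACAC was in the Ncr1 window alone among the 5, and in 14.5% of all. TTCNNNGAA, a STAT motif, and TGANTCA, an AP-1 motif, were each in the Klra2 window alone among the 5, and in 8.30% and 7.81% of all. Of the unmeasured Ly49 genes, Klra1 held TGTGGT and TCACAC at 1 place each in its window. Klra7 held CTTTGA at 1 place, and Klra4 held none of these motifs. These letters describe the windows and carry no measurement of binding.

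Values below are log2 of the deposited intensity, on which the lowest reading was 3.26 and 25% of all readings lay under 4.36. The value 4.36 is called the low end of the scale here, and how much of such a reading is background was not measured. Differences are sanroque minus wild type, each with its standard error from a limma fit and a p adjusted by the Benjamini-Hochberg method (BH) over all 19938 genes. A gene is said to rise or fall when that p was below 0.05. Rc3h1, the mutated gene, gave 9.93, 10.11 and 9.97 on the wild-type arrays and 9.98, 10.17 and 10.30 on the sanroque arrays, and a point mutation does not fix its level. Sanroque replicate 1 differed from the other 5 arrays in Xist, the RNA of the inactive X chromosome, at 11.20 against 4.02 to 4.17. Wild type replicate 2 had the highest medians among wild-type arrays for myeloid markers (6.87 against 6.03 and 6.10) and B cell markers (8.03 against 7.41 and 6.95). Klra2 and Klra3 are therefore also given without these arrays.

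Of the 5 measured genes, Klra2 and Klra3 rose in sanroque cells, 0 fell, and Klra5, Klra8 and Ncr1 did not pass. Over all genes 3.26% rose and 2.51% fell, and together 5.77% were called. All 3 sanroque values lay above all 3 wild-type values in 2 of the 5 and below them in 0, beside 9.46% and 13.2% of all genes. The list was drawn up with results of these data known, so its count of 2 in 5 is a description and not separate evidence. The median log2 fold of the 5 was 0.21, beside -0.03 over all genes. Among the 650 genes that rose, the fold of Klra2 ranked 200 and that of Klra3 ranked 335.

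**Figure D1:**
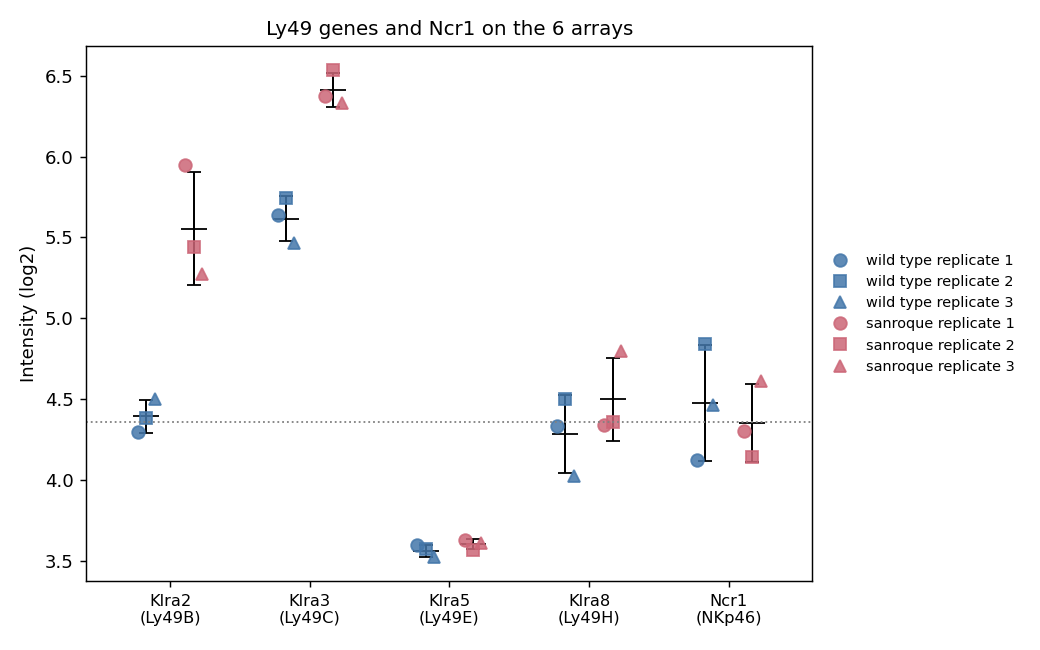
Log2 intensity of the 5 measured genes (vertical axis) on each array, with 3 wild-type values in blue and 3 sanroque values in red per gene. Bars are the mean and SD over 3 arrays, and the dotted line is 4.36, the 25% point of all readings. The groups separate for Klra2 and Klra3 and overlap for Klra5, Klra8 and Ncr1.

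Klra3 encodes Ly49C, an inhibitory receptor that binds H-2Kb, the MHC class I molecule of C57BL/6 mice. Wild type replicates 1 to 3 gave 5.64, 5.74 and 5.47, whereas sanroque replicates 1 to 3 gave 6.38, 6.53 and 6.33 (probe set 10548535). Every sanroque array lay above every wild-type array, with sanroque replicate 2 the highest. The mean went from 5.62 ± 0.14 to 6.41 ± 0.11 (SD, n = 3 each), a log2 fold of 0.80 ± 0.10 or 1.74-fold (limma, BH-adjusted p = 0.00651). The 95% confidence interval of the log2 fold was 0.58 to 1.02. Leaving out each array in turn gave log2 folds of 0.72 to 0.86, and Klra3 passed in 6 of 6 of these fits. Without both sanroque replicate 1 and wild type replicate 2 it was 0.88 (limma, BH-adjusted p = 0.0390).

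Klra2 encodes Ly49B, an inhibitory family member known mainly from myeloid cells rather than NK cells, and its gene lies apart from the main Ly49 cluster at the far end of the complex. Wild type replicates 1 to 3 gave 4.30, 4.39 and 4.50, whereas sanroque replicates 1 to 3 gave 5.95, 5.44 and 5.28 (probe set 10548552). The groups did not overlap, and sanroque replicate 1 was the highest array. The wild-type values lie at the low end of the scale. The mean went from 4.40 ± 0.10 to 5.56 ± 0.35 (SD, n = 3 each), a log2 fold of 1.16 ± 0.17 or 2.23-fold (limma, BH-adjusted p = 0.0139), with a 95% confidence interval of 0.77 to 1.55. Without sanroque replicate 1 the log2 fold was 0.96 (limma, BH-adjusted p = 0.00906), and without that array and wild type replicate 2 together it was also 0.96 (BH-adjusted p = 0.0310). Without wild type replicate 1 it was 1.11 and no longer passed (limma, BH-adjusted p = 0.0803), and it passed in the other 5 of 6 such fits.

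Markers of myeloid cells were also higher on the sanroque arrays. Of 15 markers of monocytes, macrophages and neutrophils, 14 rose and 0 fell, with a median log2 fold of 2.16, and 0 of them had a mean under 4.36. Their summed intensity ranged from 1038 to 1928 in wild type and from 8067 to 12196 in sanroque. Lyz2, the lysozyme gene of these cells, rose by 3.12 ± 0.36, Lcn2, a neutrophil granule gene, by 4.06 ± 0.34, and the macrophage gene Adgre1 by 1.22 ± 0.08. Sanroque replicate 1, the highest array for Klra2, was the highest sanroque array for 6 of the 15 markers, replicate 2 for 5 and replicate 3 for 4. S100a8, S100a9, Ngp and Lcn2 had the sanroque order of Klra2, replicate 1 above 2 above 3, and the other markers had other orders. On sanroque replicates 1 to 3, Lcn2 gave 11.52, 10.72 and 10.51. Lyz2 gave 10.71, 10.79 and 10.71, and Adgre1 gave 5.91, 5.85 and 6.11. Among wild-type arrays the list's median was highest in replicate 2, whereas Klra2 was highest in replicate 3. The part of such cells in the Klra2 and Klra3 results was not tested. In a bulk sample, a different number of cells of a type and a different amount of RNA per cell cannot be told apart.

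Klra5 encodes Ly49E, an inhibitory receptor of fetal NK cells and of some epithelial T cells. The wild-type arrays gave 3.60, 3.57 and 3.52, and the sanroque arrays 3.63, 3.57 and 3.61 (replicates 1 to 3, probe set 10548450). All 6 values were far under 4.36 and the groups overlapped, so no signal above the low end was seen in either genotype. The log2 fold was 0.04 ± 0.06, with a 95% confidence interval of -0.11 to 0.19 (limma, BH-adjusted p = 0.857).

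Klra8 encodes Ly49H, an activating receptor that pairs with DAP12 and recognises a protein of mouse cytomegalovirus. The wild-type arrays gave 4.33, 4.50 and 4.02, and the sanroque arrays 4.34, 4.36 and 4.80 (replicates 1 to 3, probe set 10548504). The readings straddled the low end of the scale and overlapped between genotypes, with sanroque replicate 3 the highest. The log2 fold was 0.21 ± 0.16, with a 95% confidence interval of -0.17 to 0.60 (limma, BH-adjusted p = 0.621). The log2 fold depended on single arrays: it was 0.064 without sanroque replicate 3, 0.082 without wild type replicate 3 and 0.32 without wild type replicate 2. The log2 fold of 0.21 over all 6 arrays is also the median of the 5 measured genes.

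For Ncr1 the wild-type arrays gave 4.13, 4.84 and 4.46, and the sanroque arrays 4.30, 4.15 and 4.61 (replicates 1 to 3, probe set 10549647). The highest of the 6 values was wild type replicate 2 and the groups overlapped. The means were 4.48 ± 0.36 and 4.35 ± 0.24 (SD, n = 3 each), and the log2 fold was -0.12 ± 0.19, with a 95% confidence interval of -0.58 to 0.33 (limma, BH-adjusted p = 0.858). Its sign turned, to 0.058, without wild type replicate 2. The gene of this NK marker stayed near the low end of the scale in both genotypes.

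**Figure D2:**
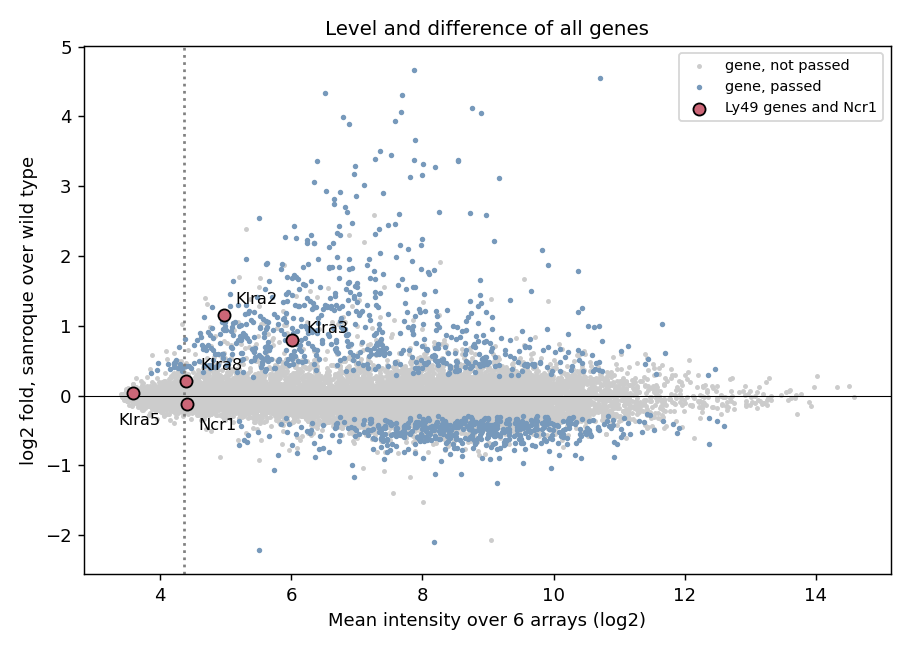
Mean log2 intensity over 6 arrays (horizontal axis) against the log2 fold of sanroque over wild type (vertical axis) for 19938 genes, with called genes in blue and the 5 measured members in red. Klra2 and Klra3 lie among the called genes above 0, at log2 folds of 1.16 and 0.80, and Klra5, Klra8 and Ncr1 lie near 0 close to or left of the dotted line at 4.36.

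The Ly49 genes are near-identical copies in places, and 4 probe sets are annotated to several of them at once. No probe sequences were used here, so cross-hybridisation between Ly49 genes was not tested, also for the probe sets with 1 symbol. The values of the 4 belong to no single gene and were taken from a fit over all 35399 probe sets, in which 1.2% rose and 0.398% fell. In that fit Klra3 and Klra2 also passed, with limma BH-adjusted p of 0.0268 and 0.0460. Of the 4 probe sets, 2 rose, 0 fell and 2 did not pass.

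The probe set listed for Klra3, Klra8, Klra9, Klra10 and Klra14-ps (10548525) gave 4.05, 4.52 and 4.15 on wild-type arrays and 5.46, 5.67 and 5.36 on sanroque arrays. The groups were separate, with a log2 fold of 1.26 ± 0.15 or 2.39-fold (limma, BH-adjusted p = 0.0249). Klra9 encodes Ly49I, another inhibitory receptor, and Klra14-ps is a pseudogene.

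A probe set listed for these 5 genes and also Klra5 and Klra6 (10548513) gave 4.02, 4.27 and 4.02 on wild-type arrays and 5.14, 5.75 and 5.08 on sanroque arrays. It too separated the genotypes, and sanroque replicate 2 was its highest array. The log2 fold was 1.22 ± 0.19 or 2.33-fold (limma, BH-adjusted p = 0.0486). Both calls were lost in most fits with 1 array fewer: leaving out each array in turn, the 5-gene probe set passed in 1 of 6 fits and the 7-gene probe set in 0 of 6, while their log2 folds stayed between 1.01 and 1.40.

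The probe set listed for Klra3, Klra5 and Klra9 (10548532) gave 4.06, 4.08 and 4.04 on wild-type arrays and 4.43, 4.43 and 4.62 on sanroque arrays. Its groups did not overlap either, but its log2 fold was 0.43 ± 0.07 and missed the threshold (limma, BH-adjusted p = 0.0552). Groups with all 3 sanroque values on top made up 8.13% of probe sets.

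The last of the 4 is the only probe set for Klra1, Klra4 and Klra7, and it also lists Klra13-ps, Klra16 and Klra23 (10548455). Klra1 and Klra7 encode the inhibitory receptors Ly49A and Ly49G, and Klra4 encodes Ly49D, an activating partner of DAP12. The probe set gave 3.73, 3.78 and 3.71 on wild-type arrays and 3.77, 3.75 and 3.75 on sanroque arrays. All 6 values were under 4.36 and the log2 fold was 0.02 ± 0.06 (limma, BH-adjusted p = 0.951), so this shared probe set gave no signal above the low end of the scale. The level of Klra1, Klra4 or Klra7 alone was not measured.

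**Figure D3:**
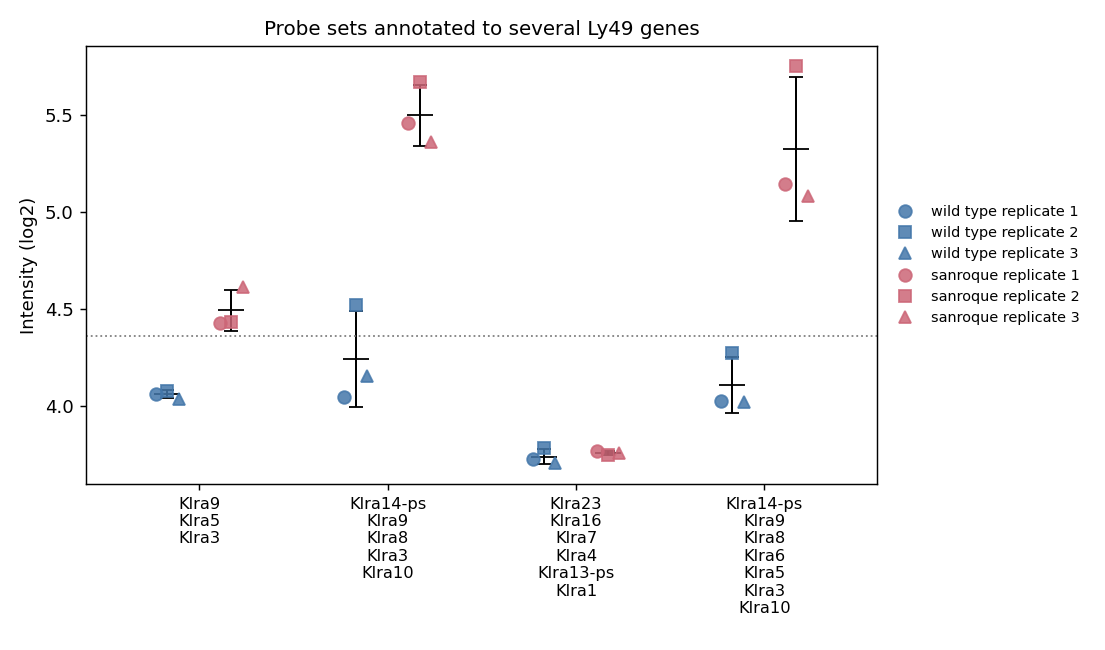
Log2 intensity (vertical axis) of the 4 probe sets annotated to several Ly49 genes, labelled with all genes listed for each, on 3 wild-type (blue) and 3 sanroque (red) arrays. Bars are the mean and SD over 3 arrays and the dotted line is 4.36. The 3 probe sets that list both Klra3 and Klra9 separate the genotypes, and the probe set of Klra1, Klra4 and Klra7 stays between 3.71 and 3.78 on all arrays.

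Along chromosome 6 the measured Ly49 genes that did not pass lie on the side of the NKG2 and Klri genes, with Klra8 further inside the cluster. The called ones, Klra3 and Klra2, lie toward the other end. Klra1 lies between these, and its only probe set, shared with other Ly49 genes, stayed under 4.36 on all arrays. In order, the genes with a probe set of their own were Klra17, Klra5, Klra6, Klra8, Klra3 and Klra2. Klra6 (Ly49F) and Klra17 (Ly49Q) are outside the listed genes and were added to complete the family. They had log2 folds of 0.02 ± 0.09 and 0.03 ± 0.06, did not pass, and had means of 3.82 and 3.68, under 4.36. With them, 2 of 6 Ly49 genes rose and 0 fell.

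Elsewhere on chromosome 6, inside the complex or outside it, 4 of 21 listed lectin-like receptor genes rose and 1 fell, with a median log2 fold of 0.06. Klrg1, an inhibitory receptor gene of effector T cells, rose by 4.33 ± 0.29 on the log2 scale. Klrc1 and Klrc2, which encode the inhibitory NKG2A and the activating NKG2C chains, rose by 3.99 ± 0.45 and 1.90 ± 0.16. Klre1, a receptor gene of NK cells, rose by 0.83 ± 0.11, from 4.31, 4.11 and 4.22 to 5.22, 5.06 and 4.86. Klrd1, which encodes the CD94 partner of the NKG2 chains, fell by 0.48. Klrb1c, the gene of the NK1.1 antigen, had separate groups but missed the threshold, with a log2 fold of 0.94 ± 0.29 (limma, BH-adjusted p = 0.120).

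**Figure D4:**
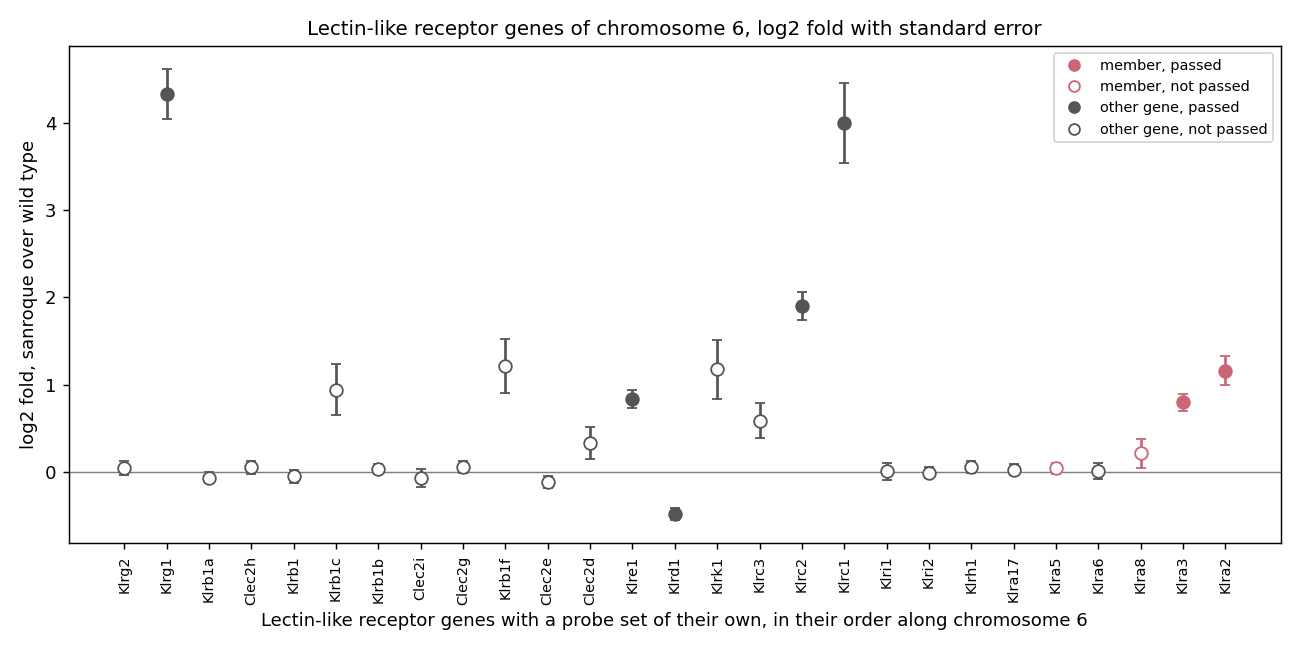
Log2 fold of sanroque over wild type (vertical axis, bars are standard errors) for 27 lectin-like receptor genes in their order along chromosome 6. Red points are Ly49 genes of the list, grey points other genes, and filled points passed the test. Klra3 (0.80) and Klra2 (1.16) are filled at the right end, and the tallest points are Klrg1 (4.33) and Klrc1 (3.99).

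Of 16 measured genes that couple these receptors to the cell, 4 rose and 2 fell. Tyrobp, the DAP12 adaptor of the activating Ly49 receptors, rose by 1.29 ± 0.17, from 6.37, 6.71 and 6.46 on wild-type arrays to 7.89, 7.44 and 8.08 on sanroque arrays. Fcer1g, an adaptor of NKp46, rose by 2.16 ± 0.15, Plcg2 by 1.69 ± 0.14 and the kinase gene Syk by 1.67 ± 0.22. Tyrobp, Fcer1g, Plcg2 and Syk are also genes of myeloid or B cells, whose marker lists had median log2 folds of 2.16 and 1.79. Cd247, the zeta chain shared by NKp46 and the T cell receptor, fell by 0.33, and the T cell adaptor Lat fell by 0.41. Ptpn6, which encodes SHP-1, the phosphatase of the inhibitory Ly49 receptors, missed the threshold, with a log2 fold of 0.01 ± 0.12. B2m, the light chain of their MHC class I ligands, also missed it, with a log2 fold of 0.07 ± 0.11. The heavy chains H2-K1, H2-D1 and H2-L were not measured by a probe set of 1 symbol.

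Among 16 measured transcription factors of NK and effector lymphocytes, 5 rose and 0 fell. Tbx21, which encodes T-bet, rose by 2.46 ± 0.24, Zeb2 by 2.18 ± 0.19, Prdm1 by 1.30 ± 0.27 and Eomes, a factor of NK and memory CD8+ T cells, by 1.29 ± 0.17. Of 16 genes described in Ly49-bearing CD8+ T cells, 9 rose and 0 fell, with a median log2 fold of 1.34. Cd44, the gene of the marker whose low surface level defined the sort, was among them: it gave 5.98, 6.43 and 6.34 on wild-type arrays and 7.34, 7.70 and 7.90 on sanroque arrays, a log2 fold of 1.40 ± 0.17 (limma, BH-adjusted p = 0.00669). Gzmb, a cytotoxic protease gene, rose by 4.30 ± 0.45, Il18rap by 3.32 ± 0.36, Slamf7 by 2.60 ± 0.26 and Fasl by 2.43 ± 0.39. Sanroque replicate 2 had the highest median of that list, 9.29 against 8.10 and 8.25, and it was the highest sanroque array for Klra3 as well. Among wild-type arrays Klra3 was highest in replicate 2, as were the medians of this list and of the myeloid and B cell lists. These lists were drawn up with earlier results of the data known.

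Markers of NK cells were mixed. Of 12 measured NK genes other than Ncr1, 3 rose and 0 fell, with a median log2 fold of 0.04. Their median level per array was 5.21, 5.18 and 5.35 on wild-type arrays and 6.08, 6.23 and 5.55 on sanroque arrays, above wild type on each. With 12 genes, each such median is the mean of 2 middle values and depends on few genes. On wild type replicate 1 these were Styk1 at 4.79 and Fcgr3 at 5.64. On sanroque replicate 1 they were Klrb1c at 5.74 and Fcgr3 at 6.43. The 3 that rose were Klre1, Fcgr3, at 0.89 ± 0.08 and also a myeloid gene, and Tyrobp. The summed intensity ranged from 748 to 806 in wild type and from 986 to 998 in sanroque, and Klri2, Klrb1a and Khdc1a had means under 4.36. Osbpl5 missed the threshold, at a log2 fold of -0.03 ± 0.09. Of 6 measured genes of innate-like T cells only Blk rose, by 1.27 ± 0.28, and it is also a B cell gene. Sox13 did not pass, at -0.01.

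Of 9 B cell markers 7 rose and 0 fell, including Cd74 (2.08), H2-Ab1 (1.79) and Cd22 (1.81 on the log2 scale), with summed intensities of 1882 to 4487 in wild type and 6987 to 8496 in sanroque and 0 markers under 4.36. Of 9 dendritic cell markers Itgax alone rose, by 1.96 ± 0.31, beside log2 folds of 0.36 for Cst3 and -0.64 for Ccr9. Their summed intensities were 3202 to 3861 and 3121 to 3809, and Clec9a was under 4.36. Cst3, Ccr9 and Bst2 made up most of these sums, with mean log2 of 10.46, 10.13 and 9.30. The next brightest dendritic cell marker was Itgax at 6.41, so the sums say little about the dimmer ones. The 7 markers of CD8+ T cells had a median log2 fold of -0.11, and of them Cd3d fell by 0.52. Cd8a, a defining marker of the labelled cells, gave 13.05, 13.00 and 13.01 on wild-type arrays and 12.99, 13.02 and 12.99 on sanroque arrays, so it was bright on every array. The part of myeloid, B, dendritic and NK cells in the Ly49 results, those of Klra3 and the shared probe sets included, was not tested.

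**Figure D5:**
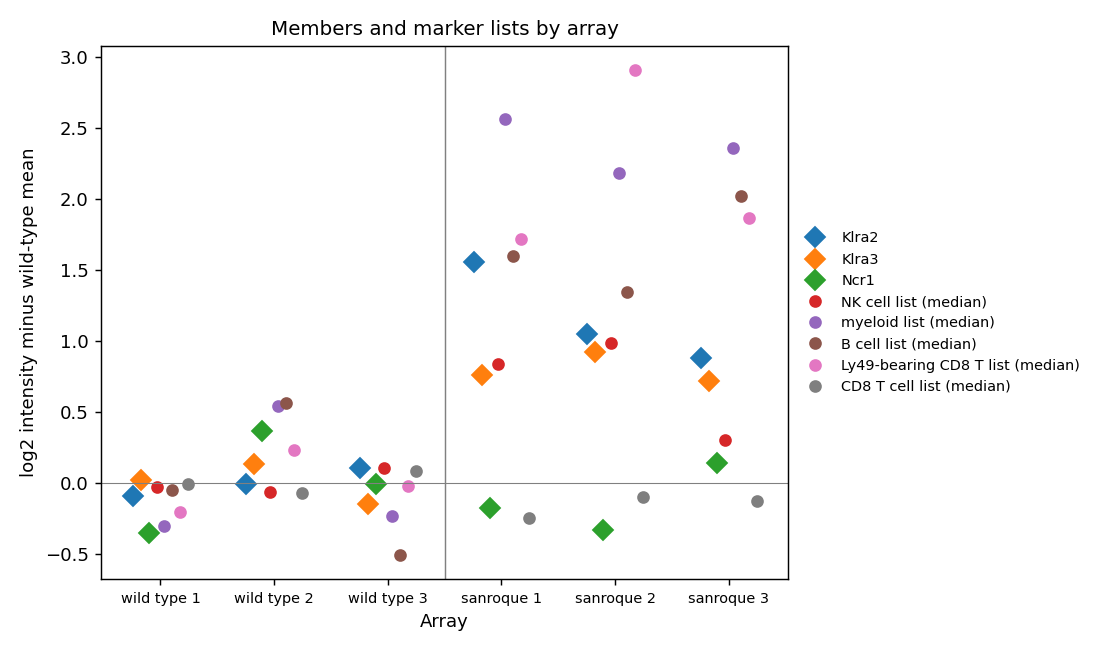
Log2 intensity of Klra2, Klra3 and Ncr1 (diamonds) and the median of 5 gene lists (circles) on each array, all minus their own wild-type mean (vertical axis). In the 3 sanroque arrays Klra2, Klra3 and the NK, myeloid, B cell and Ly49-bearing CD8+ T cell lists lie above 0, Ncr1 lies on both sides of 0, and the CD8+ T cell list lies just below 0. The median log2 fold of the NK list was only 0.04, and 9 of its 12 genes did not pass.

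The genes whose values followed Klra3 and Klra2 most closely over the 6 arrays were found among genes with a mean log2 of at least 6. For Klra3, taken as the Ly49 gene with the highest mean, the 5 with the highest Pearson r were Cd68, Anxa2, Akt1, Plcl2 and Naaa, with r between 0.99 and 1.00, and Cd68 is also a gene of the myeloid list. For Klra2, taken as the Ly49 gene with the largest SD, they were Chil1, Ckap4, Cd177, Chil3 and Gfod1, with r from 0.98 to 1.00. These points fall into 2 genotype groups and share the arrays, so r is given as a description over 6 arrays. Of the 10, all except Plcl2 rose in sanroque, with log2 folds from 0.28 for Akt1 to 3.05 for Chil3. Which cell types express those of the 10 outside the marker lists, the genes named for Klra2 included, was not examined.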

How the data were processed

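The values deposited by the authors are linear intensities, 1 for each probe set on each array, from 9.56 to 31996. Per the labels' protocols they come from cRNA carrying biotin. The submitters' processing notes name Partek without its role, and how background, summarization and normalization were handled is not given in the sources used here. Array medians lay between 53.6 and 56.9, so log2 was taken without normalizing again. The annotation gave 21789 of 35399 probe sets 1 gene symbol and 1621 several, and did not list 11989. A gene table of GRCm38.p6 updated the symbols and matched 19856 of 19938 genes, and the brightest probe set stood for a gene.

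The genotypes were compared by a two-sided test in limma 3.58.1 under R 4.3.3 (lmFit, then eBayes), with p adjusted by the Benjamini-Hochberg method (BH) over all 19938 genes, or over all 35399 probe sets for those with several symbols. The script was tested on simulated data. The p-values rest on the spread between 3 samples per genotype, with each variance drawn by eBayes toward a value estimated over all genes or probe sets. The number of arrays limits the precision. The members and lists were chosen with earlier results of these data known. Named genes were the members, Rc3h1, Cd8a, in each biology list the called genes with the largest changes, at most 4, or otherwise the 2 of smallest p, and in each marker list the 2 brightest and the 1 of smallest p. Klrb1c, Klrd1, Ptpn6, Cd247, Lat, Xist, Klra6, Klra17, Cd44, S100a8, S100a9 and Ngp were added after their values were seen. Promoter windows came from RefSeq. Alternatives covered probe set choice, a dim-gene filter, normalization, variance model, array weights, a fold minimum, the replicate number and leaving out arrays. Figures used matplotlib 3.10.9 in Python 3.11.15.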

Additional observations from a re-analysis of the deposited data

How the results depend on the processing

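Klra3 rose in all 16 alternatives run, with log2 folds from 0.72 to 0.88 and limma BH-adjusted p up to 0.0433. Not all alternatives could change a member's result. Each measured member has only 1 probe set, so the settings on probe set choice left its values as they were. The fold minimum was added to the main fit and changed no fold. Klra2 kept its direction in 15 alternatives (0.96 to 1.30) and passed in 13. It did not pass without wild type replicate 1, or with the replicate number as a block (BH-adjusted p = 0.0605 by limma). Klra8 stayed above 0, from 0.064 to 0.40, and did not pass in 15 of 15. Klra5 turned to -7.3e-05 with array weights. Ncr1 turned to 0.080 with array weights and 0.084 without wild type replicate 2 and sanroque replicate 1 together, ranged from -0.30 to 0.058 when each array was left out, and passed in 0 of 15.

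The members called higher numbered 1 with a filter of mean log2 of at least 6, and 1 with the replicate block. The filter removed every measured member except Klra3, whose mean of 6.01 combined 5.62 in wild type and 6.41 in sanroque. Klra3 thus met the filter through its sanroque values. Members called higher numbered 1 to 2 when each array was left out in turn, and those called lower stayed at 0. Over all genes, 650 rose and 501 fell. These counts were 1998 and 2735 with array weights, 271 and 30 with the replicate block, and 326 and 27 without sanroque replicate 1 and wild type replicate 2. Leaving out each array gave 196 to 587 higher and 22 to 728 lower, and a fold of at least 1.5 left 133 lower. Same-numbered arrays had correlations of deviations of -0.05, -0.16 and -0.36 across genes, and the other pairs of arrays gave -0.17 to 0.29. The deviations were taken from each genotype's own mean, so these correlations depend on each other. They cannot decide whether the replicate numbers pair samples. The cause of the shifts in the gene counts was not tested. The shared probe sets kept their direction in 9 of 9 alternatives each; those beyond quantile normalization were chosen after seeing the data. With the replicate block the 5-gene and 7-gene probe sets did not pass (limma BH-adjusted p = 0.0776 and 0.0992). Readings near the low end of the scale limit Klra5, Klra8, Ncr1 and the probe set of Klra1, Klra4 and Klra7.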
